A study of Caenorhabditis elegans with 3 samples.

Results

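The major sperm protein (MSP) genes of Caenorhabditis elegans were followed on 3 two-colour microarrays. They were chosen by name: each probe that the platform annotation pairs with exactly 1 gene, where that gene is called msp and a number. This gave 33 of the 21632 probes, for 30 genes, and all 30 entered the test of 19580 features. The RefSeq annotation of assembly WBcel235 lists 35 genes of this name. Those not analysed here are msp-58 and the pseudogenes msp-37, msp-42, msp-52 and msp-71.

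Each array compared total RNA of glp-4 worms in the L3 larval stage with RNA called wt mixed reference. The larval RNA came from preps 1, 3 and 4, with 1 array each. A valyl-tRNA synthetase is the product of glp-4, and worms with temperature-sensitive alleles of it serve as a model with few germ cells. The labels do not name the allele or the growth temperature used here. The wild-type pool is called mixed, with no word on which stages or sexes it held, so genotype and stage differ together and cannot be told apart.

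MSP is the cytoskeletal protein of nematode sperm. It takes the place of actin in the crawling of these amoeboid cells, is stored in spermatocytes in bodies of packed fibres, and is also released from sperm as a signal that triggers oocyte maturation and contraction of the gonadal sheath. In hermaphrodites sperm are made for a limited time around the last larval stage, after L3, and in males from then on. The MSP genes are many near-identical copies, so a probe for a given copy can bind RNA of the others, and the 30 genes below cannot be read as 30 independent measurements.

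Values are log2 ratios, centred on each array's median, in which a negative number is read as less RNA in glp-4 L3. The labels name no dye, so this direction is the likely one and not a stated one. It rests on the wording of the labels, which set glp-4 L3 against the reference, and on the known shortage of germ cells in glp-4 mutants. The side on which sperm genes lie is therefore partly set by this reading, and every direction would turn if the ratio ran the other way. Means are given ± SD over the 3 arrays (n = 3), and p-values are from limma with Benjamini-Hochberg adjustment over all 19580 features. Nothing in the labels says that the preps came from separate cultures, so the p-values measure only the spread between these samples.

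Germ line and oocyte markers lay below the reference and most markers of somatic tissues above it. Sperm markers other than MSP genes had a median near 0. Over all features, 8.37% were lower and 8.26% higher. Of 7 measured germ line markers 7 were lower, with a list median of -2.04, and of 9 oocyte markers 9 were lower, with a median of -4.07. The germ granule genes pgl-1 and pgl-3 were at -2.61 ± 0.23 and -2.04 ± 0.38, and the eggshell genes cpg-1 and cpg-2 at -4.07 ± 0.70 and -5.18 ± 0.32. Body wall muscle markers were higher for 4 of 4 genes and intestine markers for 4 of 4, with medians of 1.36 and 2.26. Of 4 hypodermis markers 1 was higher and none lower, and of 7 sperm markers other than MSP genes 1 was lower and none higher. Without prep 3 the germ line, muscle, hypodermis and sperm marker counts were 1, 1, 0 and 0. In that run 1.08% of all features were lower and 174 of 19703 were higher. Without prep 4 the muscle and sperm marker counts were 2 and 0, where 3.11% of all features were lower and 631 of 19808 were higher. Without prep 1, 2 sperm markers were lower and 1 was higher, where 17.6% of all features were lower and 3211 of 19651 were higher. Over all probes, the arrays of preps 1, 3 and 4 had SDs of 0.71, 0.963 and 1.14. In whole-animal RNA, fewer sperm-forming cells and less RNA per cell cannot be told apart.

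MSP genes lay far below the reference. Of the 30 genes, 28 were lower in glp-4 L3 past an adjusted p of 0.05 and none was higher, where 8.37% of all features were lower and 8.26% higher. By limma p before adjustment, 29 were lower and 0 higher at 0.05. The share of all features at that unadjusted limit was not counted, so these 2 counts have no background beside them. The median over the 30 genes was -3.18, a ratio 9.04-fold below the reference, and the genes past the threshold ranged from 4.0-fold (msp-59) to 15.4-fold lower (msp-78). In 28 of the 30 genes the mean was at least 4-fold lower, against 1.93% of all features. The sign was negative on all 3 arrays for 28 genes, against 29.4% of features. The count depended on prep 3: without it 14 genes passed, against 1.08% of features. Without prep 1 there were 30 lower genes, against 17.6% of features, and without prep 4 there were 23, against 3.11%.

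**Figure D1:**
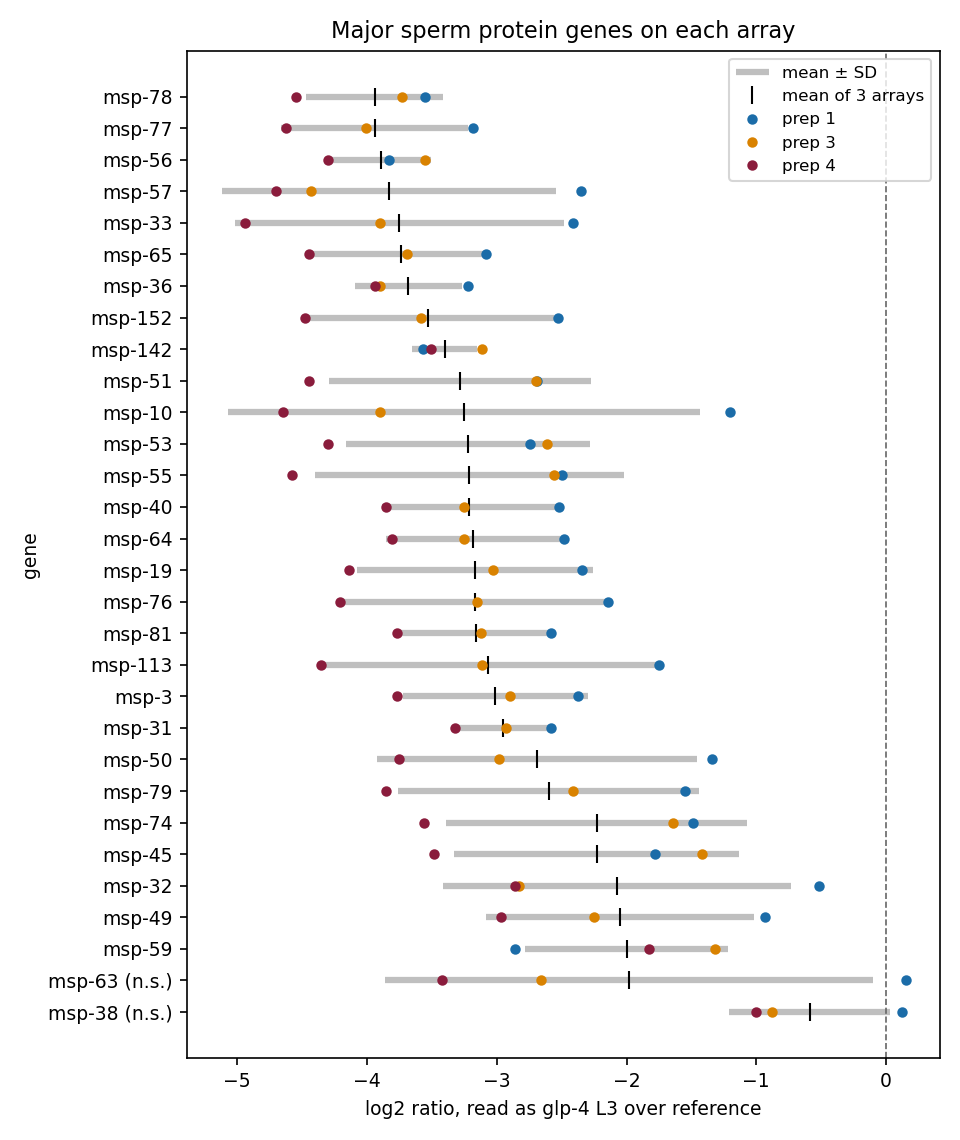
Log2 ratio (x axis, read as glp-4 L3 over reference) of each of the 30 msp genes (y axis, ordered by mean) on the arrays of preps 1, 3 and 4, with the mean (tick) and mean ± SD (grey bar) of the 3 arrays; n.s. marks genes not past the threshold. All genes but msp-63 and msp-38 lie below 0 on every array, and prep 4 is most often the lowest of the 3.

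The lowest mean was that of msp-78 (T13F2.11), at -3.55 with prep 1, -3.73 with prep 3 and -4.55 with prep 4. Its mean was -3.94 ± 0.53 (adjusted p = 0.00294). Next came msp-77 (F32B6.6), at -3.18, -4.01 and -4.62 with preps 1, 3 and 4, which gave -3.94 ± 0.72 (adjusted p = 0.0032). These genes, with msp-65, were the 3 that stood among the 10 lowest members on every array. For msp-56 (K07F5.3) the values were -3.83, -3.55 and -4.30, a mean of -3.89 ± 0.38 and 14.8-fold below the reference. The 3 arrays of msp-56 lay within 0.75 of each other, closer than for most members.

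The next members by mean differed in how even they were across the preps. For msp-57 (R13H9.2) the ratios were -2.35 with prep 1, -4.43 with prep 3 and -4.70 with prep 4, so that the mean of -3.83 ± 1.29 rested mostly on preps 3 and 4. The same order was seen in msp-33 (R05F9.8), at -2.41, -3.90 and -4.94, with a mean of -3.75 ± 1.27. Prep 1 was again the nearest to 0 in msp-65 (ZK354.1), at -3.08, -3.69 and -4.45 (mean -3.74 ± 0.69). In msp-36 (C04G2.4) the values were -3.22, -3.90 and -3.94 (mean -3.68 ± 0.41), and in msp-152 (ZK546.6) they were -2.53, -3.58 and -4.48 (mean -3.53 ± 0.97). The adjusted p of these 5 genes ran from 0.00294 for msp-36 to 0.00858 for msp-33.

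The next 13 members, from msp-142 to msp-31, had means between -3.40 and -2.95. In that order they were msp-142, msp-51, msp-10, msp-53, msp-55, msp-40, msp-64, msp-19, msp-76, msp-81, msp-113, msp-3 and msp-31. The most even gene of all was msp-142 (K05F1.2), with an SD of 0.25, and the least even of these was msp-10 (K07F5.2), with an SD of 1.82. Below this size of change came msp-50 and msp-79, at -2.69 ± 1.23 and -2.60 ± 1.16. Then followed msp-74, msp-45, msp-32, msp-49 and msp-59, with means from -2.23 to -2.0 and adjusted p from 0.0152 (msp-59) to 0.0474 (msp-32). Means of neighbouring members differed by less than their SDs over most of this range, so the order among them is loose.

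A pair of members did not pass. With prep 1 msp-63 (K05F1.7) was at 0.15, and with preps 3 and 4 it was at -2.66 and -3.42. Its mean of -1.98 ± 1.88 had a 95% interval from -3.69 to -0.26 (adjusted p = 0.107), and without prep 1 it was at -3.04 and passed (adjusted p = 0.00166). The arrays of preps 3 and 4 thus place msp-63 with the other members, and the array of prep 1 places it at the median probe. For msp-38 (K08F4.8) the values were 0.12, -0.88 and -1.0, with a mean of -0.59 ± 0.62 and a 95% interval from -1.26 to 0.09 (adjusted p = 0.183). Without prep 1 its mean was -0.94 and passed (adjusted p = 0.0157). Its ratio was the highest of all members with preps 3 and 4 and came after that of msp-63 with prep 1, and it lay above the median of the other 29 by 2.61, 2.23 and 2.94 with preps 1, 3 and 4. This distance from the other members was not tested.

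**Figure D2:**
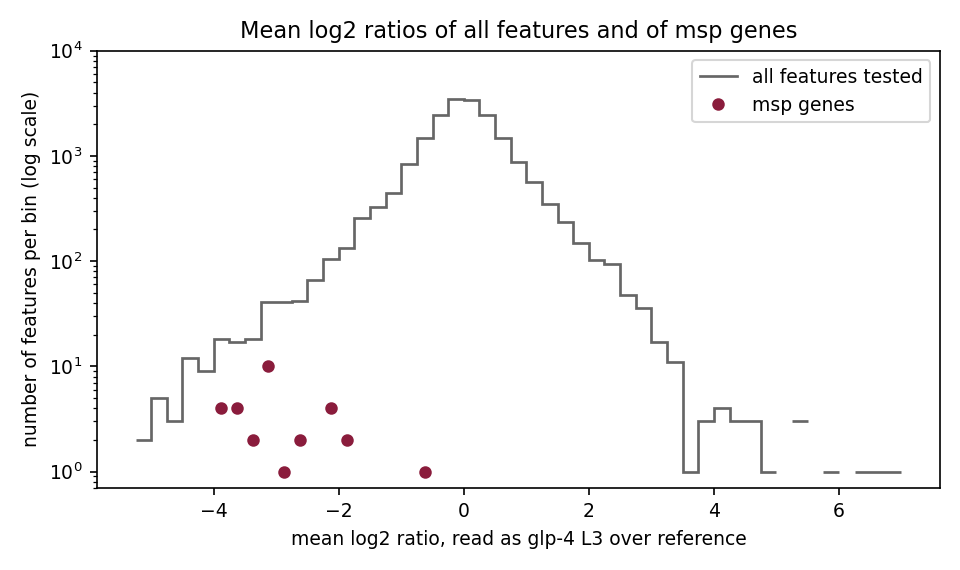
Number of features (y axis, log scale) by mean log2 ratio of the 3 arrays (x axis, bins of 0.25), as a line for all 19580 features tested and as points for the 30 msp genes. Of the msp genes 29 lie in the lowest 5% of features, below -1.33, and msp-38 lies at -0.59.

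Among all features, the MSP genes lay in the low end without reaching its edge. None was among the 20 lowest features, 5 were among the 50 lowest and 17 among the 100 lowest. On the single arrays of preps 1, 3 and 4, the lowest 5% of features held 26, 27 and 29 of the 30 genes. The member medians were -2.45, -3.07 and -3.90 with preps 1, 3 and 4. The spread of all features also differed between arrays: divided by each array's median absolute deviation, the same medians were -6.43, -4.73 and -4.71. So the deeper log2 ratios with preps 3 and 4 came with a wider spread of all features, and relative to that spread prep 1 had the lowest median.

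All 30 members were lower with prep 4 than with prep 3, by a median of 0.76, and 28 were lower with prep 4 than with prep 1. The spread of all features was also widest with prep 4, with median absolute deviations of 0.381, 0.65 and 0.826 for preps 1, 3 and 4. The same counts were not made for other features, so they cannot be read as particular to the MSP genes. Across the 30 genes, the values of preps 3 and 4 correlated with Pearson's r = 0.78, those of preps 1 and 3 with 0.48 and those of preps 1 and 4 with 0.49. Across all features the same values were 0.84, 0.66 and 0.61. These are correlations across genes on arrays that share the reference RNA, and near-identical genes are not independent points. In the array titles, preps 3 and 4 share a letter code and a date that prep 1 does not, so the split between prep 1 and the others is also a split by what reads as an array series.

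The difference between prep 1 and the mean of preps 3 and 4 was above 2 in 6 members, where 1.47% of all features had one so large. They were msp-63 (3.19), msp-10 (3.08), msp-32 (2.32), msp-57 (2.22), msp-50 (2.02) and msp-33 (2.01). The members lay far below most features, with a median of -3.18. All features had median absolute deviations of 0.381, 0.65 and 0.826 with preps 1, 3 and 4. Features as low as the members were not counted apart, so the 6 cannot be read as particular to the MSP genes. The value of msp-57 averages probes that were at -1.15 and -3.55 with prep 1. In msp-10 the values were -1.20 with prep 1, -3.90 with prep 3 and -4.65 with prep 4. In msp-32 they were -0.52, -2.83 and -2.86. In the opposite direction stood msp-59 alone past 1, at -1.28, and the 2 probes of that gene are described next.

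**Figure D3:**
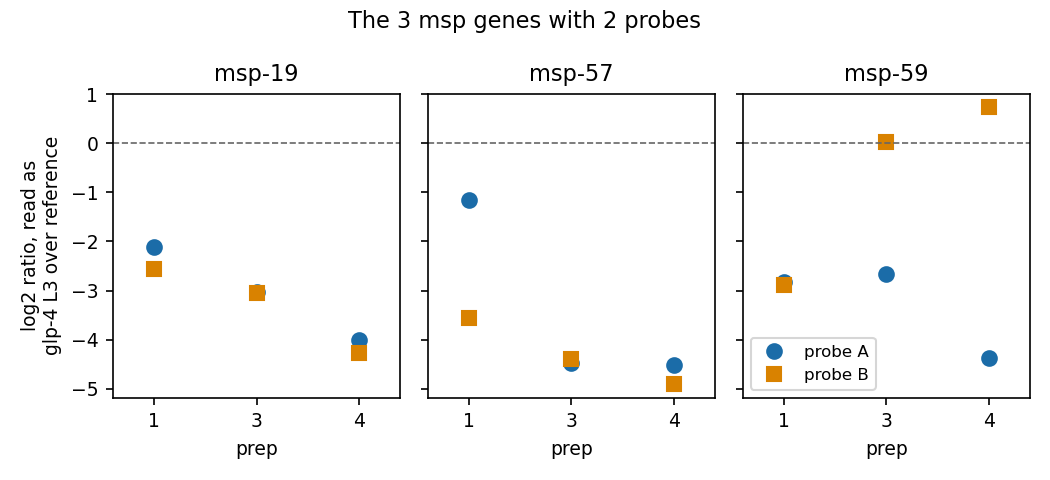
Log2 ratio (y axis, read as glp-4 L3 over reference) of each probe of msp-19, msp-57 and msp-59 on the arrays of preps 1, 3 and 4 (x axis); circles and squares are the 2 probes of a gene. The probes of msp-19 lie together on each array, those of msp-57 part with prep 1, and those of msp-59 part with preps 3 and 4.

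The genes msp-19, msp-57 and msp-59 had 2 probes each, which were averaged above. For msp-19 (F36H12.7) the probes were at -2.12 and -2.56 with prep 1, -3.02 and -3.05 with prep 3, and -4.01 and -4.27 with prep 4. They gave the same picture of this gene on each array. For msp-57 they were at -1.15 and -3.55 with prep 1, but at -4.48 and -4.39 with prep 3 and at -4.51 and -4.90 with prep 4. Both probes of msp-57 were least negative with prep 1, the first by more than the second.

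With prep 1 the probes of msp-59 (ZK354.11) lay together, at -2.83 and -2.88. With prep 3 they were at -2.66 and 0.02, and with prep 4 at -4.38 and 0.73. The second probe taken alone had a mean of -0.71 ± 1.91 and did not pass (limma adjusted p = 0.49), while the first had -3.29 ± 0.95 and passed (adjusted p = 0.00707). The gene's mean of -2.0 ± 0.78 is therefore the average of unlike probes; without the second probe, an option chosen after seeing the data, it was -3.29 (adjusted p = 0.00657). With each probe as its own feature, 30 of the 33 MSP probes were lower, where 8.03% of all probes were. The other 3 were those of msp-38 and msp-63 and the second of msp-59. Whether a probe that departs from the rest reports another RNA, a failed spot or a difference between the preps was not tested.

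**Figure D4:**
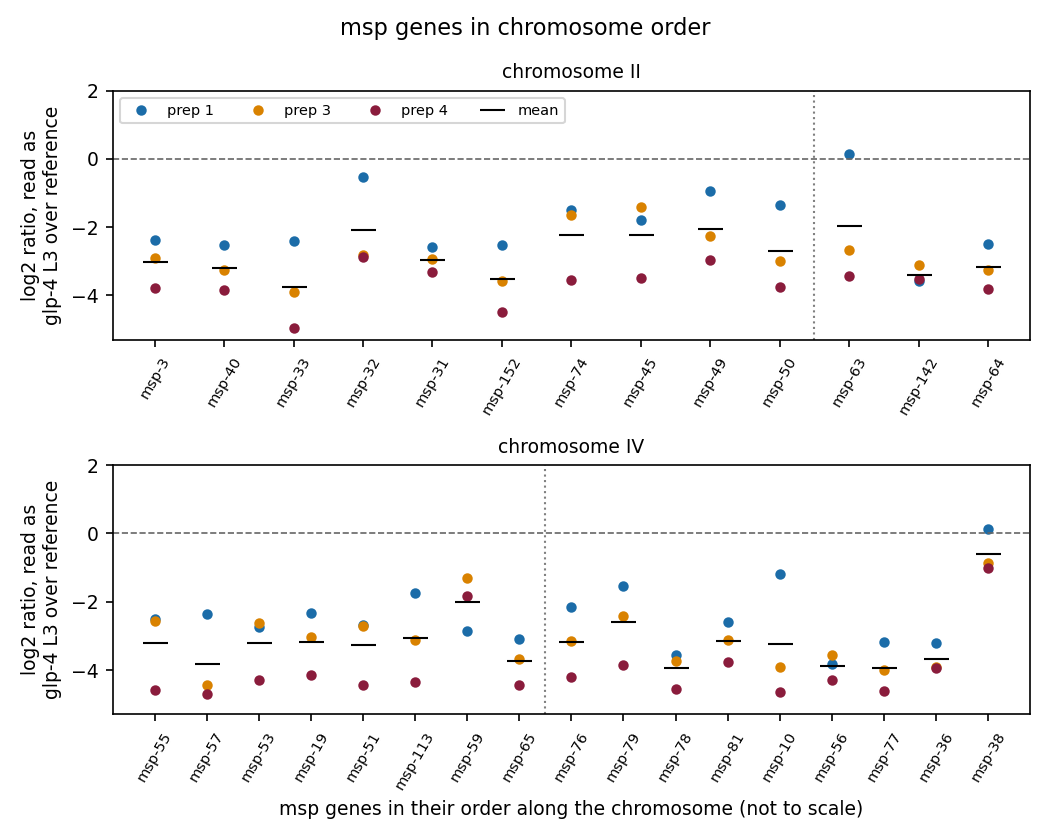
Log2 ratio (y axis, read as glp-4 L3 over reference) of the msp genes in their order along chromosome II (top) and chromosome IV (bottom), with the arrays of preps 1, 3 and 4 as points and the mean as a bar; dotted lines part groups with over 100 genes between them. Low ratios run through each of the 4 groups. By mean, msp-63, msp-59 and msp-38 stand above their neighbours, and so do other genes, msp-32 and msp-79 among them. The mean of msp-59 averages unlike probes.

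The MSP genes lie in groups on chromosomes II and IV, taken from the gene order of WBcel235. The 13 genes of chromosome II had a median of -2.95, with 12 lower, and the 17 of chromosome IV had -3.22, with 16 lower. Split where over 100 genes lay between neighbours, they formed 4 groups with medians of -2.82 (msp-3 to msp-50), -3.18 (msp-63 to msp-64), -3.21 (msp-55 to msp-65) and -3.25 (msp-76 to msp-38). The 11 pairs of close neighbours, with at most 1 gene between them, differed by a median of 0.64, and all 435 pairs by 0.67. The adjacent msp-63 and msp-142 were at -1.98 and -3.40, and the adjacent msp-33 and msp-32 at -3.75 and -2.07. Next to each other in the same way, msp-81 and msp-10 were at -3.16 and -3.25.

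The msd and ssp classes encode small proteins that carry an MSP domain. All 4 measured msd genes were lower, with a median of -2.75: msd-1 at -3.38 ± 0.21, msd-4 at -2.82 ± 0.66, msd-3 at -2.68 ± 1.08 and msd-2 at -2.06 ± 0.53. Without prep 3, 2 of the 4 passed, where 1.08% of all features were lower. Of 11 ssp genes, 5 were lower, none was higher and the median was -0.77. Both classes are to be read beside 8.37% lower and 8.26% higher over all features. The lowest ssp genes were ssp-10 (-2.18 ± 0.66), ssp-16 (-1.58 ± 0.46), ssp-11 (-1.56 ± 0.68) and ssp-9 (-1.24 ± 0.15). No ssp gene passed without prep 3, and 3 passed without prep 4, against 1.08% and 3.11% of all features. With preps 1, 3 and 4 the medians were -2.02, -2.52 and -3.57 for msd and -0.37, -1.04 and -1.11 for ssp, each nearer to 0 than that of the MSP genes on the same array.

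Some ssp genes lie beside MSP genes and had other values. Directly next to msp-77 lies ssp-32, at -0.35 ± 0.12 against -3.94, and directly next to msp-79 lies ssp-36, at 0.52 ± 0.86 against -2.60; neither ssp gene passed. The gene vpr-1, whose product is a homologue of the membrane protein VAP and carries an MSP domain outside sperm, was at 0.08 ± 0.18 (adjusted p = 0.762).

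**Figure D5:**
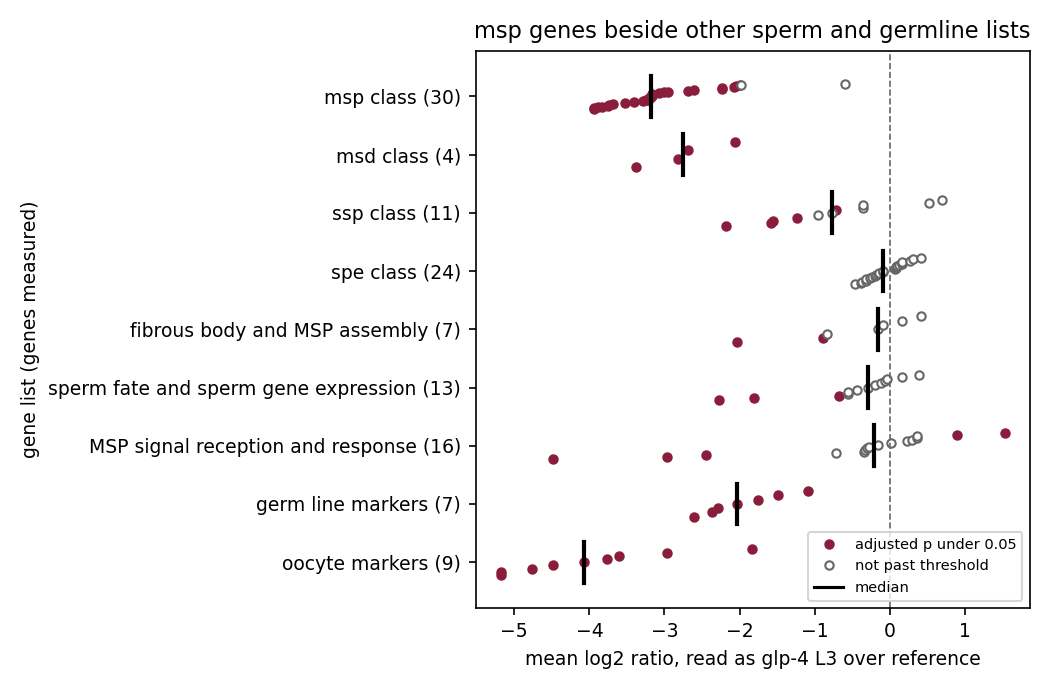
Mean log2 ratio of 3 arrays (x axis, read as glp-4 L3 over reference) of each gene in the msp class and 8 other lists (y axis, with the number of genes measured); filled points passed an adjusted p of 0.05, open points did not, and bars are list medians. The msp, msd, germ line and oocyte lists lie below 0 throughout, while the spe class lies around 0. Genes that stand in several lists are drawn in each.

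The other sperm lists, read beside 8.37% lower and 8.26% higher over all features, held some lower genes or none. In the list of fibrous body and MSP assembly genes, 2 of 7 measured members were lower; none was higher, and the median was -0.15. They were wee-1.3 (-2.04 ± 0.31), a kinase that holds the oocyte cell cycle, and gsp-4 (-0.89 ± 0.06), a sperm protein phosphatase with a near-identical copy, gsp-3. The gene wee-1.3 was counted as listed, so its value cannot be read as that of an MSP assembly gene. The genes spe-4 and fer-1, of the membranous organelles of sperm, were at 0.42 ± 0.31 and 0.16 ± 0.28 and did not pass. Without prep 3 the list held 0 lower genes, and without prep 4 it held 1, where 1.08% and 3.11% of all features were lower. Of 24 spe genes, named for defective sperm, 0 were lower and 0 higher by limma (1 and 0 before adjustment at 0.05), with means from -0.46 to 0.42. The share of all features before adjustment was not counted. With array weights 1 spe gene was lower and 1 higher, in a run where 4161 of all features were lower and 3938 higher. The signal level of the spe probes is unknown, so a ratio near 0 may also be that of a probe near background.

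Of 13 measured genes for sperm fate and sperm gene expression, 3 were lower, none was higher and the median was -0.29, beside the same 8.37% lower over all features. They were fog-2 (-2.27 ± 1.21), an F-box gene needed for hermaphrodite sperm, fem-3 (-1.81 ± 0.40), which promotes male and sperm fates, and ergo-1 (-0.68 ± 0.02). The Argonaute gene ergo-1 was counted as listed, and its link to sperm was not tested. In the same list, the Argonaute genes alg-3 and alg-4 were at 0.39 ± 0.55 and -0.55 ± 0.38 and did not pass. The count of lower genes was 1 without prep 3 and 1 without prep 4, against 1.08% and 3.11% of features. The transcription factor genes spe-44 and elt-1, linked to sperm gene expression, were at 0.16 ± 0.31 and -0.43 ± 0.25, neither past the threshold.

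Of the genes that receive or answer the MSP signal, 3 of 16 measured members were lower and 2 higher, against 8.37% and 8.26% of all features, and the median was -0.21. Lower were oma-2 (-4.48 ± 0.71) and oma-1 (-2.96 ± 0.28), RNA-binding regulators of oocyte maturation, and inx-14 (-2.45 ± 0.46), a gap junction subunit of the germ line. Higher were itr-1 (1.53 ± 0.15), the inositol trisphosphate receptor of the sheath and other somatic tissues, and kin-2 (0.90 ± 0.34), the regulatory subunit of protein kinase A. The higher count was 0 without prep 3 and 1 without prep 4, where 174 of 19703 and 631 of 19808 features were higher. The MSP receptor gene vab-1, an Eph receptor on oocytes and sheath cells, was at -0.71 ± 0.44 and did not pass (limma adjusted p = 0.088).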

How the data were processed

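The authors deposited 1 table of log2 values, taken here as channel ratios because, on each array, 100% of the values below a ratio of 1 were the log2 of a number kept to 3 decimals, within 0.01 thousandths. For scanner, background correction, normalization and build, the sources used here name nothing. Intensities were not used, so no probe could be judged against background. The number of arrays limits the precision. The lowest MSP ratio was 32 thousandths, so rounding is small.

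Each array was centred on its median (deposited log2 medians -0.00723, -0.0247 and -0.0262), and a gene's probes were averaged within each array. Names came from the platform annotation, updated by gene number to RefSeq (16365 of 16450 single-gene probes). Features with 3 values were tested against 0 with limma 3.58.1 in R 4.3.3 (lmFit, eBayes), threshold 0.05; the reference is a single control RNA, whose own spread is left out. Alternatives were values as deposited, other scalings, 2 arrays as minimum, single probes, a robust prior, array weights, leaving out each prep and a limit of 2-fold. The procedure was tested on simulated data. It found 1.5% of changes of the smallest size tried, 53.3% and 74% of the next sizes and 83% of the largest. The sizes are not given here in log2 units, so these shares cannot be set against single ratios. A gene not past the threshold may therefore still differ.

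Members and lists were chosen with earlier results of these data known, and lists carry no set test. The lists overlap and are not separate evidence. The genes oma-1 and oma-2 are also oocyte markers, and gsp-3, gsp-4 and fer-1 are also sperm markers. The spe class also holds spe-4, spe-18, spe-39 and spe-44 of other lists, and the sperm markers spe-9, spe-11 and spe-38. The spe class and the sperm markers are thus in part the same genes. By rule, array values are given for the 8 lowest members, those not passing or differing in sign, and those with several probes, and up to 4 and 2 list genes per direction; other genes named with values were chosen after these were seen. No sequences of probes or proteins were used.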

Additional observations from a re-analysis of the deposited data

How the results depend on the processing

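No MSP gene changed sign under any alternative run, and none was higher past the threshold. Over single genes and settings, 22 calls were lost and 4 were gained. Of the lost calls 14 fell without prep 3 and 5 without prep 4, 2 (msp-10 and msp-32) with the robust prior and 1 (msp-59) with arrays scaled to the same spread. The gained calls were msp-63 and msp-38, without prep 1 and with array weights. Leaving out each prep in turn, lower MSP genes numbered 14 to 30, higher ones 0 in each case, and the median ran from -3.54 to -2.68; all features lower numbered 212 to 3464 and higher 174 to 3211. Array weights (0.452, 2.68 and 0.825 for preps 1, 3 and 4) gave 4161 lower and 3938 higher features, with 30 lower MSP genes; the cause was not tested. Leaving out a prep leaves 1 residual degree of freedom. A random block for the array series could not be fitted: limma returned no value for 3 arrays. No paired analysis was possible because there is 1 group. Signal over background is unknown.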

Other observations

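The genes directly beside MSP genes in the WBcel235 order were looked at after the member values were seen, so their counts are a description. Of 38 measured genes that are no MSP genes, 6 were lower by limma and 3 were higher; their median was -0.26. That is 15.8% lower and 7.89% higher, against 8.37% and 8.26% of all features. Of 106 measured genes 2 to 5 places away, 14 were lower, 6 were higher and the median was -0.21.

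The lowest neighbour was cav-1, which encodes a caveolin, next to msp-78: it was at -3.60, -2.90 and -3.74 with preps 1, 3 and 4, against -3.94 for the mean of msp-78. Next to msp-45 lies srb-13, named for a serpentine receptor class, at -2.98, -3.15 and -3.04, an even ratio on arrays where msp-45 was at -1.78, -1.42 and -3.48. The gene sss-1, beside msp-77, was at -2.42, -2.43 and -2.38. The higher neighbours were aagr-2 (1.88 ± 0.18) beside msp-31, K05F1.10 (1.56 ± 0.09) beside msp-64, and the glutathione transferase gene gst-4 (1.50 ± 0.22) beside msp-38, the MSP gene nearest to 0.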
